A study of Mus musculus with 2 samples.

Results

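The genes described here are 8 enzymes of asparagine, proline and glutamate metabolism: Asns, Aldh18a1, Pycr1, Oat, Gpt2, Got1, Glul and Prodh. They were listed by name, with no threshold on their values, and are 8 of the 32285 genes counted in both libraries. All 8 passed the minimum of 100 unique molecular identifiers (UMIs, counted RNA molecules) over both libraries. The cells were myeloid-derived suppressor cells (MDSCs). They were grown out of marrow from female, 10-week-old C57BL/6 mice. Both cultures received GM-CSF (50 ng/mL) together with IL-6 (50 ng/mL) over 4 days, and one was given 1.5 µM dabrafenib (DAB), an inhibitor of the kinase BRAF, and the other its solvent DMSO. Each condition is 1 single-cell RNA library, so no test between the conditions was possible. How many mice went into a library is not stated in the labels or methods, and these are cells matured in a dish, not cells taken from a tumor.

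Asns makes asparagine from aspartate, taking the amide group from glutamine. Proline is made from glutamate in mitochondria: Aldh18a1 makes the intermediate pyrroline-5-carboxylate and Pycr1 reduces it to proline, while Oat links the same intermediate to ornithine and Prodh turns proline back into it. Gpt2 and Got1 move amino groups between glutamate and alanine or aspartate, and Glul makes glutamine from glutamate and ammonia. Asns is a textbook target of ATF4, the transcription factor that cells use when amino acids run short, which binds C/EBP-ATF response elements in the promoters of its targets.

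The letters of such an element, TGATGNAA on either strand, were looked for in the 250 bases before the RefSeq start of each gene (RefSeq, build GRCm38.p6). They occurred in 3 of the 8 members, and in 1134 of all 32851 promoters of the same length (3.45%). For Prodh the 250 bases lay wholly inside the gene as GENCODE gives it, so nothing before its GENCODE start was searched. The promoters of Asns, Pycr1 and Got1, which hold a match, and of Aldh18a1, which holds none, are shown because the first 2 and the last belong to genes that were higher in DAB and Got1 to one that was not. Capitals mark the match, each sequence runs 5′ to 3′ along the gene's strand, and a stretch that GENCODE counts as part of the gene was left off, apart from 30 bases of Asns up to the end of its match.
Asns, chr6:7693225.0-7693459.0, minus strand: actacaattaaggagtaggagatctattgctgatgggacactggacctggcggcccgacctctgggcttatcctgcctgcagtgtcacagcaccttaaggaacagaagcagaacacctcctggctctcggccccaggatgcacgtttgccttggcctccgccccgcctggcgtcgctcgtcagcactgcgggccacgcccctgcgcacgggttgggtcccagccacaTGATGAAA
Pycr1, chr11:120643770.0-120643998.0, minus strand: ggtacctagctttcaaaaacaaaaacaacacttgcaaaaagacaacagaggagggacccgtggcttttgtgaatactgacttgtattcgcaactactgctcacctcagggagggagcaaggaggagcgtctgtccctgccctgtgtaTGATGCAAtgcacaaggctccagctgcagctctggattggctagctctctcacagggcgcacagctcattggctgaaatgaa
Got1, chr19:43524606.0-43524855.0, minus strand: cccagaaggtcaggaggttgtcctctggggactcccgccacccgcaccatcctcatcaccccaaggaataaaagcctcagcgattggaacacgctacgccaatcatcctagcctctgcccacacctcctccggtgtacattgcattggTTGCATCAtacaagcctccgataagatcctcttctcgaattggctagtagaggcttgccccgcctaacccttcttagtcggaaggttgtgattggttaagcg
Aldh18a1, chr19:40588464.0-40588713.0, minus strand: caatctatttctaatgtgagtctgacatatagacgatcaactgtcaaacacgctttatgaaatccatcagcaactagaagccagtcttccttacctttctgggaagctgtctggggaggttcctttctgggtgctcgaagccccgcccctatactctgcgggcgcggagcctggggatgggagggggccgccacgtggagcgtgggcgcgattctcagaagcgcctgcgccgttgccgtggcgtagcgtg

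The match lay 23 to 16 bases before the start in Asns and 103 to 96 bases before it in Pycr1, both reading TGATGNAA on the gene's own strand. In Got1 it lay 102 to 95 bases before the start and on the other strand (TTNCATCA). A match is a description of these letters, and no match says only that they are not in this window.

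After removal of barcodes with over 10% mitochondrial UMIs and of likely doublets, 9032 DMSO cells (91610901 UMIs, median 7465.5 per cell) and 10476 DAB cells (139595106 UMIs, median 9319) remained. Before this removal the libraries shared 152 cell barcodes, 1.54% of the 9855 of DMSO and 1.31% of the 11631 of DAB. Levels are given as CPM, the summed UMIs of the cells named scaled to a total of 1000000. They are not divided by transcript length, and 5′ libraries count transcript starts, so a level is set beside other levels of the same gene only. Values in brackets are 95% exact intervals, which cover counting error only. A gene is called higher or lower in DAB where its log2 ratio of DAB over DMSO was at least 0.5 in size and the interval of the ratio left out 0.

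Of the 8 members, 5 were higher in DAB over all cells, none was lower and 3 were neither. Of the 13334 genes with at least 100 UMIs, 14.0% were higher and 15.9% lower by the same rule, and the median log2 ratio was -0.01. At a log2 ratio of at least 1 stood 4 members, Asns, Aldh18a1, Pycr1 and Gpt2, against 4.36% of all genes. In such sums over a whole library, fewer cells of a type and less RNA per cell cannot be told apart.

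Asns, asparagine synthetase, was at 25.7 CPM in DMSO (24.6 to 26.7) and at 128 CPM in DAB (126 to 130), which is 4.99 times as high (log2 ratio 2.32, 2.26 to 2.38). It ranked 99 of the 13334 genes by log2 ratio, counted from the highest. When each class of cells was weighted by its share of the DMSO UMIs, Asns stood at 123 CPM in DAB, a log2 ratio of 2.26.

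The enzymes of proline synthesis from glutamate were both higher. Aldh18a1 was at 10.4 CPM in DMSO and 33.4 CPM in DAB, 3.22 times as high (log2 ratio 1.69, 1.59 to 1.79). Pycr1 was at 11.6 CPM in DMSO and 33.1 CPM in DAB (log2 ratio 1.51, 1.41 to 1.61), and at 29.5 CPM in DAB with the classes at their DMSO shares (log2 ratio 1.35). Oat, the enzyme on the ornithine side, did not join them: it was at 39.96 CPM in DMSO and 36.5 CPM in DAB, a log2 ratio of -0.13 (-0.19 to -0.07). Prodh, the first enzyme of proline breakdown, was rare, with 177 UMIs in DMSO and 447 in DAB. It was at 1.93 CPM and 3.20 CPM, a log2 ratio of 0.73 (0.47 to 0.99), and was called higher.

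The transaminases of alanine and aspartate, Gpt2 and Got1, differed from each other. Gpt2, the mitochondrial alanine transaminase, was at 3.44 CPM in DMSO and 9.70 CPM in DAB (log2 ratio 1.50, 1.32 to 1.68). Got1, the cytosolic aspartate transaminase, was at 37.9 CPM and 39.0 CPM, a log2 ratio of 0.04 (-0.02 to 0.11). Glul, glutamine synthetase, was at 45.3 CPM in DMSO and 33.1 CPM in DAB. Its log2 ratio of -0.45 (-0.51 to -0.39) lay on the lower side of 0 but short of the 0.5 that a call needs.

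**Figure D1:**
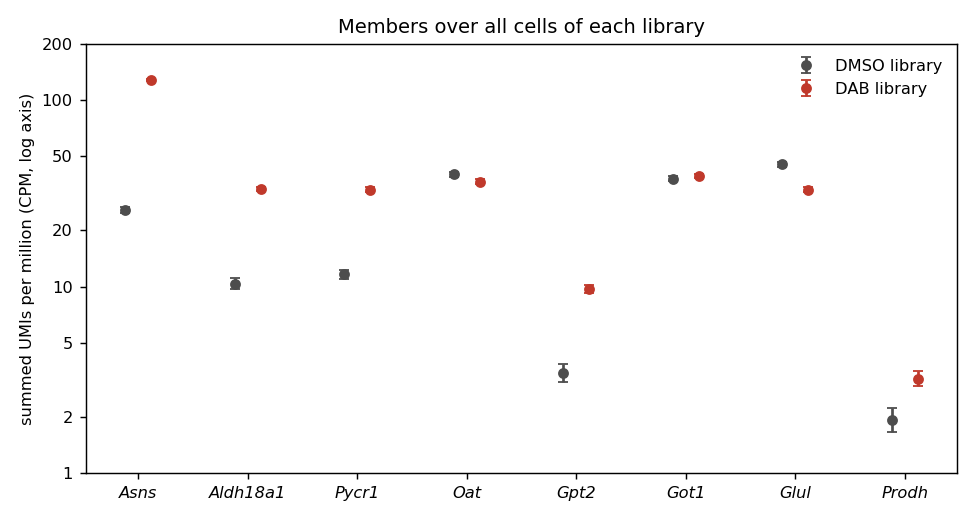
Level of each member over all cells of the DMSO library (grey) and the DAB library (red), in CPM on a log axis; points are sums over 1 library each and bars are 95% exact Poisson intervals. Asns, Aldh18a1, Pycr1, Gpt2 and Prodh sit higher in DAB with intervals apart, Got1 and Oat lie close together, and Glul is at 45.3 CPM in DMSO and 33.1 CPM in DAB.

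Several members have a close relative. Pycrl, the cytosolic reductase of proline synthesis, had a log2 ratio of 0.43 and was not called, but stood at 0.53 and was called higher when every cell had the same weight. Gpt, the cytosolic alanine transaminase, was at 7.90 CPM in DMSO and 5.19 CPM in DAB and was called lower (log2 ratio -0.61), on the other side of 0 from Gpt2. Got2, the mitochondrial aspartate transaminase, had a log2 ratio of 0.40 and was not called, and Prodh2 had 0 UMIs in both libraries, which allows up to 3 UMIs in each.

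Of 48 other genes in 3 lists of the same pathways, 42 had at least 100 UMIs. Of these, 13 were higher and 5 lower in DAB, beside 14.0% higher and 15.9% lower among all genes. The median log2 ratio of the 42 was 0.16. Counts of 1 or 2 genes in a list are near those shares and are not read as a result about it. Among the asparagine and aspartate genes 1 of 10 was higher, the mitochondrial aspartate and glutamate carrier Slc25a12 (log2 ratio 0.55, but 0.29 and uncalled when every cell had the same weight), and 1 was lower. In the proline and ornithine list 4 of 12 were higher and 2 lower. Arg1, the arginase that makes ornithine from arginine, was at 1115 CPM in DMSO and 498 CPM in DAB (log2 ratio -1.16), but at a log2 ratio of -0.20 and uncalled when every cell had the same weight. In the list of glutamate, glutamine and alanine genes 8 of 20 were higher and 2 lower. Psat1, the transaminase of serine synthesis, was at 32.7 CPM in DMSO and 107 CPM in DAB (log2 ratio 1.71). The glutamine transporters Slc1a5 and Slc38a2 had log2 ratios of 1.54 and 1.15. Bcat1, a cytosolic transaminase of branched-chain amino acids, was below the level set for naming and was picked after its values were seen: it was at 0.819 CPM in DMSO and 11.1 CPM in DAB, a log2 ratio of 3.76.

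**Figure D2:**
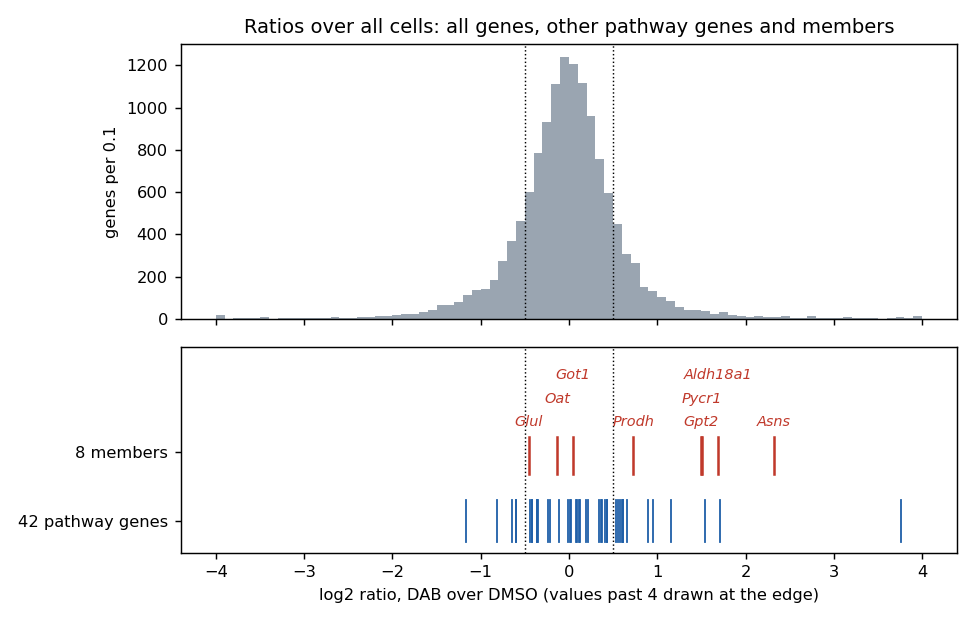
Top, number of genes per 0.1 of log2 ratio, DAB over DMSO, for the 13334 genes with at least 100 UMIs over all cells; bottom, the 8 members (red) and 42 other genes of the pathway lists (blue), with dotted lines at the 0.5 that a call needs. Asns at 2.32 stands farthest to the right among the members, and Got1, Oat and Glul lie between the dotted lines.

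The share of cells with a UMI was taken after each cell was thinned to 1500 UMIs. Shallower cells, 436 of DMSO and 292 of DAB, were set aside. Asns was seen in 2.95% of DMSO cells (2.61 to 3.33) whereas in DAB the share was 12.5% (11.8 to 13.1). Unthinned, the shares were 14.9% and 48.8%, at the unequal median depths given above. Aldh18a1 was seen in 1.16% and 3.35% of thinned cells, Pycr1 in 0.954% and 2.59%, and Gpt2 in 0.291% and 1.05%. Oat was seen in 4.36% of thinned DMSO cells and 3.68% of DAB cells, Got1 in 3.63% and 4.38%, Glul in 6.90% and 5.95%, and Prodh in 0.209% and 0.383%. No class of these cells is known to lack Asns, so a class without it could not serve as background.

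The number of UMIs per cell moved along with the share of cells. Unthinned, 22.5% of DAB cells held 3 or more Asns UMIs against 2.59% of DMSO cells, and 3.19% against 0.0332% held 10 or more. The highest Asns count in a cell was 31 in DAB and 13 in DMSO. For Pycr1, 5.26% of DAB cells and 1.23% of DMSO cells held 3 or more UMIs, and the highest counts were 41 and 11. Glul had no such tail in DAB, with 2.94% of cells at 3 or more UMIs there and 3.71% in DMSO.

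**Figure D3:**
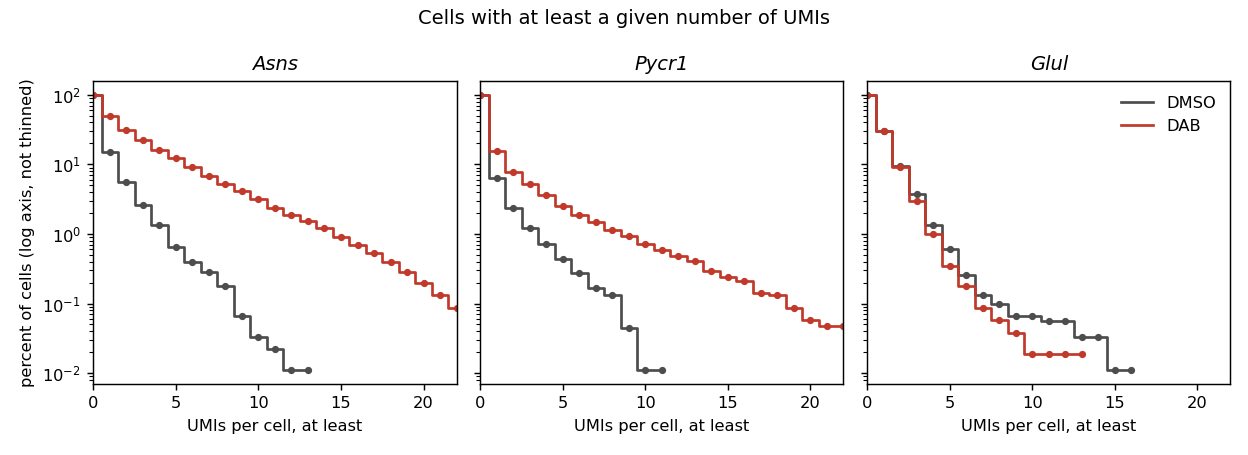
Percent of cells (log axis, no thinning) with at least the number of UMIs on the horizontal axis, shown up to 22, for Asns, Pycr1 and Glul in the DMSO library (grey) and the DAB library (red). The Asns and Pycr1 curves of DAB run above those of DMSO from 1 UMI on, and the Glul curves run close together at low counts.

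Clusters were built without the members and the pathway genes and named from marker genes, and 9 named classes had at least 100 cells in each library. They were granulocyte progenitor-like, intermediate granulocyte-like, mature PMN-like (polymorphonuclear, that is neutrophil), chemokine-high granulocyte-like, immature and mature monocyte-like, macrophage-like, activated dendritic cell-like and B cell-like cells. The cultures thus held B cell-like cells (1.62% in DMSO, 1.86% in DAB) beside the myeloid classes. Clusters with no name held 46.9% of DMSO cells and 49.2% of DAB cells, and the shares of the classes differed, chemokine-high granulocyte-like cells making up 3.55% in DMSO and 14.1% in DAB. Over the 72 pairs of a member and a class, 32 were called higher in DAB (44.4%), 9 lower (12.5%) and 31 neither. By class, 10.1% to 23.8% of all genes with at least 100 UMIs there were higher and 9.72% to 18.5% lower. The share of lower pairs lies within that range. From 1 of the 32, Pycr1 in macrophage-like cells, no direction is read, as described with that gene.

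Asns was higher in 8 of the 9 classes, B cell-like cells being the exception. In granulocyte progenitor-like cells, the named class with the highest level in both libraries, it was at 52.9 CPM in DMSO (43.6 to 63.5) and 252 CPM in DAB (233 to 273). In DMSO an unnamed cluster led by Ube2c and Cenpf stood above this, at 62.3 CPM (56.2 to 68.8). So did one led by H2-Q10 and Myl10, at 60.4 CPM (52.4 to 69.4), and both intervals overlapped that of the class. Intermediate granulocyte-like cells had 20.1 and 94.6 CPM, mature PMN-like cells 14.6 and 49.2 CPM, and chemokine-high granulocyte-like cells 15.9 and 108 CPM. The last class was made of 2 clusters in unequal parts: one led by Gpnmb and Ccl3 held 301 DMSO and 1001 DAB cells and had 14.2 and 94.5 CPM, and one led by Cxcl3 and Cxcl2 held 20 and 473 cells, with 126 CPM in DAB and 7 UMIs in DMSO. Among the granulocyte classes the mature PMN-like cells thus had the smallest log2 ratio, 1.76 (1.33 to 2.20). That interval overlapped those of intermediate granulocyte-like (2.03 to 2.46) and granulocyte progenitor-like cells (1.96 to 2.55). The order did not hold by cluster: the larger mature PMN-like clusters stood at 1.59 and 2.26, and the intermediate granulocyte-like clusters at 3.05 and 2.03. Immature monocyte-like cells had 23.0 and 132 CPM and mature monocyte-like cells 18.9 and 116 CPM. Macrophage-like cells had 4.15 CPM in DMSO, from 9 UMIs, and 75.0 CPM in DAB, from 138, a log2 ratio of 4.18 (3.21 to 5.34). Activated dendritic cell-like cells had the lowest levels, 2.89 CPM from 8 UMIs and 16.2 CPM from 32. After thinning, 1 of 166 and 0 of 113 of these cells held an Asns UMI, so a share could not show this difference at that depth. B cell-like cells had 37.1 CPM in DMSO and 29.9 CPM in DAB, a log2 ratio of -0.31 whose interval ran from -1.07 to 0.47. In DMSO the class intervals overlapped between 7 of the 8 neighbours in the order of levels, and in DAB between 3 of 8.

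RNA from granulocytes in cells of other classes was gauged with S100a8, an abundant granulocyte gene. In DAB it reached 9.70% of its all-cell level in B cell-like cells, 27.7% in macrophage-like, 2.48% in activated dendritic cell-like and 0.557% in mature monocyte-like cells, and in DMSO 2.52%, 4.68%, 0.506% and 0.483%. At the same share of its all-cell level, Asns would stand in DAB at 12.4 CPM in B cell-like cells, where 29.9 CPM was measured, at 35.5 CPM in macrophage-like cells, where 75.0 CPM was measured, and at 3.18 CPM in activated dendritic cell-like cells, where 16.2 CPM was measured. S100a9, another abundant granulocyte gene, stood in DAB at 9.83% of its all-cell level in B cell-like cells and 11.4% in macrophage-like cells. It stood at 1.33% in activated dendritic cell-like and 0.574% in mature monocyte-like cells. Levels reckoned from the S100a9 share would thus be smaller in macrophage-like cells. The part of such RNA in these values was not tested.

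**Figure D4:**
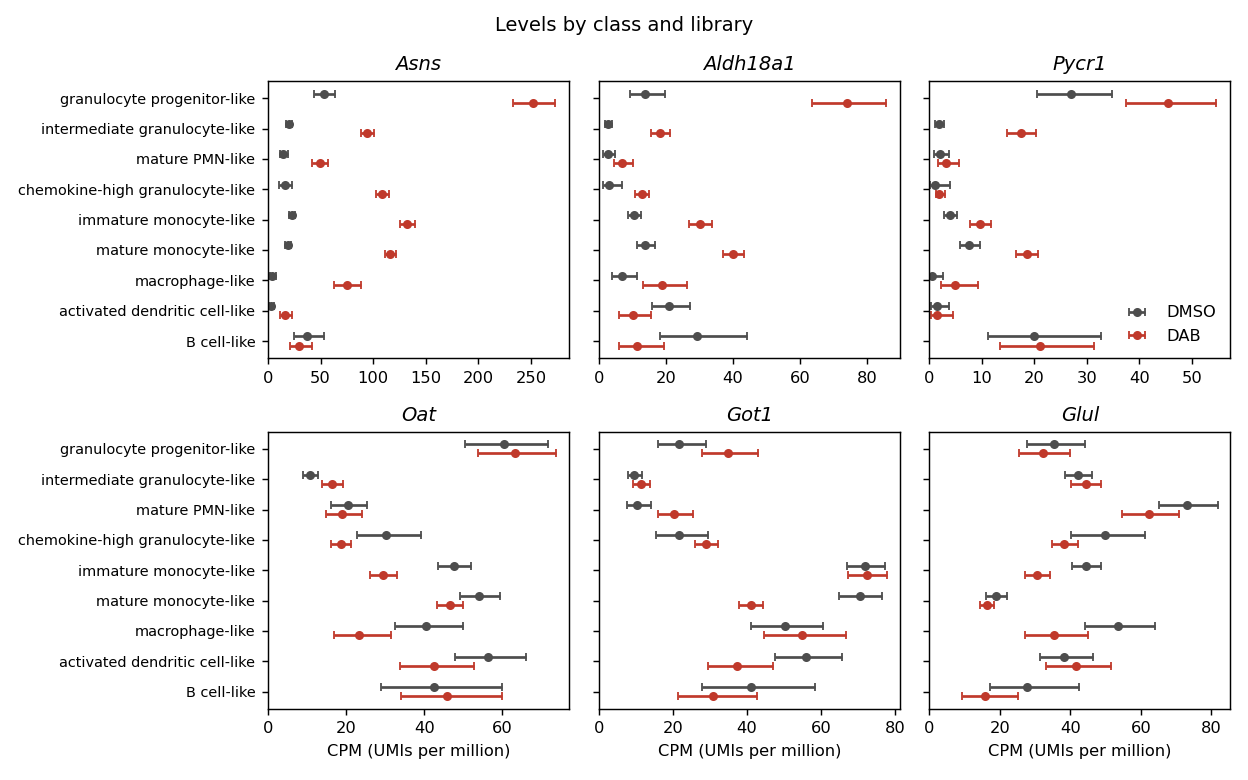
Level of 6 members in the 9 classes, in CPM, for DMSO (grey) and DAB (red); points are sums over the cells of 1 library and bars are 95% exact Poisson intervals. Asns is higher in DAB in each class but B cell-like cells, Got1 is lower in DAB in mature monocyte-like and activated dendritic cell-like cells, and Glul is highest in mature PMN-like cells in both libraries.

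Aldh18a1 was higher in 7 classes and lower in 2. The largest log2 ratio was in intermediate granulocyte-like cells, at 2.93 CPM in DMSO and 18.2 CPM in DAB (log2 ratio 2.63, 2.09 to 3.22). Granulocyte progenitor-like cells had 13.9 and 74.0 CPM, and mature monocyte-like cells 13.9 and 40.1 CPM. Macrophage-like cells had 6.92 and 19.0 CPM, and the S100a8 share corresponds to 0.486 CPM there in DMSO and to 9.26 CPM in DAB. In DMSO the highest levels among the named classes were those of B cell-like cells, 29.2 CPM, and activated dendritic cell-like cells, 21.0 CPM. These were the classes where it was lower in DAB, at 11.4 CPM from 13 UMIs and 10.1 CPM from 20 UMIs (log2 ratios -1.35, -2.46 to -0.30, and -1.05, -1.86 to -0.30). The DMSO level is the denominator of that ratio, so nothing is read from the classes being the same.

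Pycr1 was called higher in 5 classes, from 1 of which no direction is read, and lower in none. In intermediate granulocyte-like cells it was at 1.86 CPM in DMSO and 17.4 CPM in DAB, a log2 ratio of 3.22 (2.56 to 3.95). This class was made of different cells in the 2 libraries: its cluster led by the secondary granule genes Camp, Ltf and Ngp held 802 DMSO and 195 DAB cells, and within that cluster Pycr1 was at 1.29 and 22.9 CPM. Its other cluster, of 828 and 797 cells, had 2.57 and 15.3 CPM. Granulocyte progenitor-like cells had 26.9 and 45.5 CPM, immature monocyte-like cells 3.87 and 9.59 CPM, and mature monocyte-like cells 7.51 and 18.5 CPM. In macrophage-like cells Pycr1 had 1 UMI in DMSO and 9 in DAB. The 4.89 CPM there in DAB lay under the 9.17 CPM that the S100a8 share gives. It lay above the level that the S100a9 share of 11.4% would give, so the 2 gauges disagree. From these few UMIs no direction is read.

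The UMIs of Pycr1 were gathered in few clusters, more so than those of Asns. The 3 clusters with the most Pycr1 UMIs held 52.1% of them in DMSO and 13.8% of all UMIs, and in DAB the leading 3 held 46.0% of them and 19.0% of all UMIs. For Asns the leading 3 held 35.3% in DMSO, with 26.7% of all UMIs, and 33.5% in DAB, with 27.1% of all UMIs. The highest Pycr1 levels were in an unnamed cluster led by H2-Q10, Myl10, Thy1 and the azurophil granule protease gene Prtn3, with 163 DMSO and 235 DAB cells, at 79.4 CPM and 123 CPM (log2 ratio 0.63). An unnamed cluster led by Chil3 and Gal, of 572 and 186 cells, stood at 10.6 CPM in DMSO and 99.3 CPM in DAB (log2 ratio 3.22). One led by stefin A family genes, with 258 and 730 cells, had 30.8 and 79.5 CPM. Of these 3 clusters, the one with the highest level in DMSO had the smallest log2 ratio. The DMSO level is the denominator of that ratio and all 3 were high in DAB, so nothing is read from this order.

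Oat was higher in 1 class and lower in 3. It was higher in intermediate granulocyte-like cells, at 10.8 CPM in DMSO and 16.4 CPM in DAB (log2 ratio 0.60). It was lower in chemokine-high granulocyte-like cells (30.3 and 18.6 CPM, log2 ratio -0.70, and -0.94 in their cluster led by Gpnmb and Ccl3), in immature monocyte-like cells (47.6 and 29.5 CPM, -0.69) and in macrophage-like cells (40.6 and 23.4 CPM, -0.80). Its highest level among the named classes was in granulocyte progenitor-like cells in both libraries, 60.3 and 63.1 CPM, with a log2 ratio of 0.07 (-0.28 to 0.41). An unnamed cluster led by Ube2c and Cenpf stood above this, at 72.3 CPM in DMSO and 69.4 CPM in DAB. Oat and Aldh18a1, which make the same proline precursor from ornithine and from glutamate, were therefore called on opposite sides of 0 in these 3 classes.

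Prodh was called higher in 4 classes from few UMIs. The largest counts were in granulocyte progenitor-like cells, with 13 UMIs in DMSO and 39 in DAB (6.03 and 15.7 CPM, log2 ratio 1.38, 0.44 to 2.41). Activated dendritic cell-like cells had 8 and 19 UMIs, a log2 ratio of 1.73 (0.47 to 3.13).

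Gpt2 was higher in 5 classes. In mature monocyte-like cells it had 13 UMIs in DMSO and 195 in DAB, at 1.57 and 12.1 CPM (log2 ratio 2.94, 2.13 to 3.88). Granulocyte progenitor-like cells had 2.78 and 19.3 CPM (2.79), and intermediate granulocyte-like cells 0.533 and 4.11 CPM (2.95). In immature monocyte-like cells, the named class where it was highest in DMSO, it was at 6.97 and 10.6 CPM, a log2 ratio of 0.60 (0.16 to 1.05). The intervals of this ratio in immature and mature monocyte-like cells did not overlap. Those of the DAB levels did (8.67 to 12.8 and 10.5 to 13.9 CPM), and the DMSO level is the denominator of the ratio. Macrophage-like cells had 10 UMIs in DMSO and 20 in DAB, at 4.61 and 10.9 CPM (1.24, 0.07 to 2.50). The S100a8 share corresponds to 0.161 CPM there in DMSO and to 2.69 CPM in DAB. With clusters at resolution 0.5, Gpt2 was higher in 4 classes.

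Got1 was near 0 over all cells but not within each class. It was lower in mature monocyte-like cells, at 70.6 CPM in DMSO and 41.1 CPM in DAB (log2 ratio -0.78, -0.94 to -0.62), and in activated dendritic cell-like cells, at 56.1 and 37.5 CPM (-0.58). It was higher in mature PMN-like cells, at 10.4 and 20.3 CPM (0.96, 0.40 to 1.54), and in granulocyte progenitor-like cells, at 21.8 and 35.0 CPM (0.68). The call in mature PMN-like cells depended on the clustering. Without cell cycle regression 7 classes were compared, mature PMN-like but not granulocyte progenitor-like cells among them. Got1 was higher in none of those and lower in 2. Of the named classes, immature monocyte-like cells had the highest level in both libraries, 72.0 and 72.4 CPM, with a log2 ratio of 0.01 (-0.14 to 0.16).

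Glul was highest in mature PMN-like cells in both libraries, at 73.1 CPM in DMSO (65.1 to 81.8) and 62.3 CPM in DAB (54.6 to 70.9). It was lower in DAB in immature monocyte-like cells (44.5 and 30.5 CPM, log2 ratio -0.54) and in macrophage-like cells (53.5 and 35.3 CPM, -0.60). In the other 7 classes no direction was read, with log2 ratios from -0.81 in B cell-like cells to 0.11 in activated dendritic cell-like cells. The log2 ratio of 0.08 in intermediate granulocyte-like cells joined 2 clusters that differed: in the one led by Camp, Ltf and Ngp Glul was called higher, at 23.0 CPM in DMSO and 37.3 CPM in DAB (0.70, 0.31 to 1.08), and in the other it was at 65.6 and 47.1 CPM (-0.48, -0.71 to -0.25). Among the 20 clusters with at least 100 cells in each library, Glul was lower in 6 and higher in 1. Asns was higher in 19 and lower in none, and Aldh18a1 was higher in 17 and lower in 2. The share of all genes called was not taken by cluster, so these counts are not read as a trait of the members.

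The count of members called was set beside the share of genes called in the same class, among genes with at least 100 UMIs there. Granulocyte progenitor-like cells had 6 of 8 members higher, against 21.4% of genes, and intermediate granulocyte-like cells 6 of 8, against 23.4%. Immature monocyte-like cells had 5 higher and 2 lower, against 11.6% and 15.2% of genes. Mature monocyte-like cells had 4 higher and 1 lower, against 15.4% and 18.5%. Macrophage-like cells had 4 higher and 2 lower, against 11.8% and 14.1%, and the 4 include Pycr1, from which no direction is read. Mature PMN-like cells had 3 higher, against 23.8%. Chemokine-high granulocyte-like cells had 2 higher and 1 lower, against 11.7% and 10.6%. Activated dendritic cell-like cells had 2 higher and 2 lower, against 10.1% and 13.5%. B cell-like cells had none higher and 1 lower, against 18.2% and 12.5%, and no member reached 100 UMIs there. In the other classes 3 to 7 of the 8 members did.

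**Figure D5:**
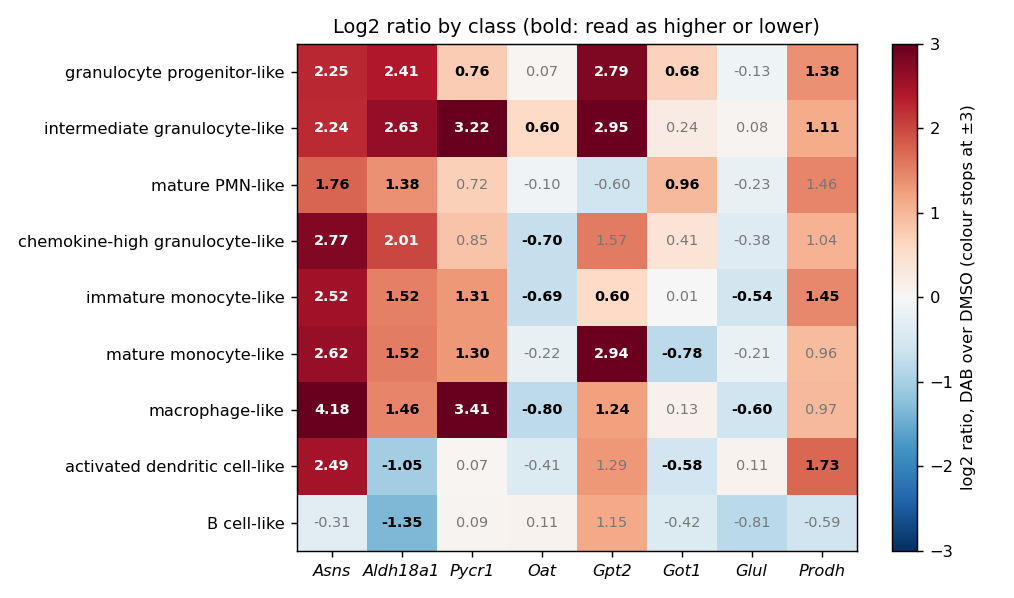
Log2 ratio of DAB over DMSO for each member (columns) in each class (rows), with colour from blue (lower in DAB) to red (higher); bold values are called, grey values are not. The Asns column is called in 8 of 9 rows, Aldh18a1 turns blue in activated dendritic cell-like and B cell-like cells, and the Oat and Got1 columns hold calls of both signs.

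Depth differed between the libraries within some classes. Granulocyte progenitor-like cells had a median of 10133 UMIs in DMSO and 23395.5 in DAB, and mature monocyte-like cells 19470.5 and 28550.5, while mature PMN-like cells had 3131 and 3028. A CPM divides out the depth of the sum, and whether cells of unequal depth are otherwise alike was not tested.

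Asns, Aldh18a1, Pycr1, Oat, Gpt2 and Prodh had higher levels in proliferating cells than in the other cells of each library, with intervals apart. The share of all genes with intervals apart in this way was not taken, so this is not read as a trait of the members. Proliferating cells, those with at least 3 UMIs of proliferation genes after thinning, numbered 1195 in DMSO and 1023 in DAB. They were not split or weighted by class, so proliferation and a different mix of classes cannot be told apart here. Asns was at 50.6 CPM in these cells and 19.9 CPM in the others in DMSO, and at 211 and 109 CPM in DAB. Pycr1 was at 23.1 and 8.97 CPM in DMSO and 53.9 and 28.4 CPM in DAB. Oat, which did not differ by a call between the libraries, was at 61.4 and 35.0 CPM in DMSO and 61.9 and 30.7 CPM in DAB. Glul went the other way, at 37.1 CPM in proliferating and 47.3 CPM in other cells of DMSO and 21.4 and 35.8 CPM in DAB. Between the libraries the log2 ratio of Asns was 2.06 in proliferating cells (1.96 to 2.17) and 2.46 in the others (2.38 to 2.54), and those of Aldh18a1 were 1.68 and 1.69.

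The genes whose levels were most like a member's were found over 18 points, the 9 classes in each library, among 5909 genes that reached 20 CPM in either library. The points of a library share that library and its depth, so Pearson's r is given as a description. For Asns they were Trib3 (r = 0.88), Cars (0.88) and Cth (0.88). For Aldh18a1 they were Yars (0.90), Shmt2 (0.88) and Wdr43 (0.87), and for Pycr1 Eef2k (0.89), Pck2 (0.89) and Shmt2 (0.89). The members without a call had other partners: Paics, Gadd45gip1 and C1qbp for Oat (0.91 to 0.90), Kcnn4, Tanc2 and Nme2 for Got1 (0.91 to 0.90), and Fmnl2, Olr1 and Rffl for Glul (0.86 to 0.85). The points span both libraries, so a member's difference between them is part of each r, and nothing is read from this contrast. Gpt2 and Prodh were below 20 CPM and got none. Among the 5 members called higher, r over the same points ran from 0.39 to 0.74 in their 10 pairs. These members were picked as higher in DAB and the points span both libraries, so a positive r is partly built in. Glul had a negative r with each of the other 7 members, from -0.61 with Pycr1 to -0.10 with Prodh. Its level lay on the lower side in DAB, so its r with the members called higher has the same limit.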

How the data were processed

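The deposited values are raw UMI counts per gene and barcode, made by the authors with Cell Ranger 7.0.0 on mm10 (10x Genomics 5′ v2). Barcodes over 10% mitochondrial UMIs and scored doublets were removed. Residuals of 3000 variable genes, without the members and pathway genes, were regressed on cell cycle and mitochondrial scores, reduced to 40 components, aligned by mutual nearest neighbours and clustered with Leiden (resolution 0.9, seed 1) in Python with leidenalg 0.10.2. Classes needed at least 3 markers. With 1 library per condition, no test was run. Sums carry exact Poisson, shares exact binomial (Clopper-Pearson) and ratios exact conditional intervals at 95%. Calls on rescaled or reweighted ratios, such as those with every cell weighted alike, borrowed the width of the first ratio's interval. The members, lists and alternatives were chosen with earlier results of these data known. Named genes were the members, their paralogs, pathway genes that reached 20 CPM in either library with a log2 ratio beyond 1 in either direction, and per member at that level the 3 genes with the highest Pearson r (1 CPM added, log2). One gene that this rule names is not reported here. The ratio, its interval and the call were tested on simulated data. The authors' clusters and scores were not used here.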

Additional observations from a re-analysis of the deposited data

Results flagged for a closer look

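Of the members, 3 were called on opposite sides of 0 in different classes of the same comparison. The share of all genes with calls on both sides was not taken. By class, 10.1% to 23.8% of genes were higher and 9.72% to 18.5% lower, so the 3 are not read as a trait of the members. With 1 library per condition the differences between classes were not tested. Aldh18a1 was lower in B cell-like cells (log2 ratio -1.35) and activated dendritic cell-like cells (-1.05), and higher in chemokine-high granulocyte-like (2.01), granulocyte progenitor-like (2.41), immature monocyte-like (1.52), intermediate granulocyte-like (2.63), macrophage-like (1.46, where the S100a8 share corresponds to 9.26 of the 19.0 CPM in DAB), mature PMN-like (1.38) and mature monocyte-like cells (1.52). Oat was lower in chemokine-high granulocyte-like (-0.70), immature monocyte-like (-0.69) and macrophage-like cells (-0.80), and higher in intermediate granulocyte-like cells (0.60). Got1 was lower in activated dendritic cell-like (-0.58) and mature monocyte-like cells (-0.78), and higher in granulocyte progenitor-like (0.68) and mature PMN-like cells (0.96). The call in mature PMN-like cells was lost without cell cycle regression.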

How the results depend on the processing

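No paired analysis was possible because each condition is 1 library. Over all cells 5 members were higher and none lower under each of 6 alternatives (median of ratios scaling, mean over cells, no filter on cells, doublets kept, cells thinned, classes at their DMSO shares), and at a log2 ratio of at least 1 there were 4. Median of ratios scaling, mean over cells and DMSO shares kept the width of the first interval, shifted to the new ratio. Asns ranged from 2.16 to 2.32 on the log2 scale, Pycr1 from 1.35 to 1.51, Glul from -0.46 to -0.21 and Got1 from 0.03 to 0.28. With every cell weighted alike, 2 pathway genes were lower instead of 5, Arg1, Arg2 and Adssl1 losing the call, and the median of all genes shifted to 0.09. Without alignment of the libraries, 7.14% of member and class pairs were lower instead of 12.5%. In that clustering 7 of the 9 classes could be compared. Its immature monocyte-like cluster held 1383 DMSO and 54 DAB cells, and its macrophage-like cluster 167 and 96. Both had too few DAB cells for the comparison, so the ratios in these classes were not checked without alignment. Over the 7 classes compared, the first clustering had 8.93% lower (5 of 56 pairs, against 4). Among 304 log2 ratios of members in classes under 5 other clusterings, 23 lay outside the interval of the first, and no called ratio changed sign. Some classes could not be compared in every clustering. Immature monocyte-like cells were compared only at resolutions 0.5 and 1.5. Macrophage-like cells were also missing when genes that differ 2-fold were left out. Granulocyte progenitor-like cells were missing at resolution 1.5 and without cell cycle regression. Without thinning, Asns was seen in 14.9% of DMSO and 48.8% of DAB cells, since more UMIs per cell are read. By Spearman's rho, 8 of the 18 genes most like a member were again among its first 3. Depth limits Gpt2 and Prodh most, and with 1 library per condition no value carries a replicate error.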
